A study of Mus musculus with 106 samples.

Results

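Foxa2 binding sites that were found in mouse liver after the LXR agonist T09 and in no other Foxa2 list are described here. A member was any peak of the T09 Foxa2 list that overlapped, by 1 base or more, no peak of the other 4 Foxa2 lists. Of 25318 Foxa2 peaks with T09, 12385 (48.9%) met this rule and are called T09-only peaks, and the remaining 12933 are called other T09 peaks. The 5 Foxa2 lists held 80883 peaks in all.

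The series measured chromatin accessibility (ATAC-seq), transcription factor binding (ChIP-seq) and RNA in livers of WT and Foxa2-KO mice, in 106 samples. The Foxa2 lists came from WT mice of 8 to 12 weeks that received T09 (T0901317, an LXR agonist), GW3965 (an LXR agonist), GW4064 (an FXR agonist), the vehicle of the LXR agonist experiment or the vehicle of the GW4064 experiment 4 h before harvest. The sample labels give oral gavage and the series text gives injection. Chromatin was made from 100 mg of snap-frozen liver and precipitated with an antiserum against Foxa2. LXR ChIP-seq with T09, the agonist labelled GW or vehicle, and PPAR ChIP-seq with T09, GW3965, GW4064 or vehicle, used C57BL/6 mice of 3 months, both WT and Foxa2-KO. FXR ChIP-seq with GW4064 or vehicle used both genotypes at 8 to 12 weeks. Accessibility gained with T09, GW3965 or GW4064 over vehicle was available for WT livers, and that gained with GW4064 also for Foxa2-KO livers. In the Foxa2-KO mice the Alfp.Cre transgene, an albumin and alpha-fetoprotein driven Cre, deletes Foxa2loxP alleles in the liver. The LXR groups had 1 sample each in WT and 3 in Foxa2-KO, the FXR and PPAR groups 2 each and the ATAC groups 2 or 3, and each list used here covers 1 group or 1 comparison. No Foxa2 list of Foxa2-KO livers was used here, so the antiserum was not tested against livers that lack Foxa2.

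Each Foxa2 group was 1 sample and 1 list. The T09, GW3965 and vehicle samples of the LXR agonist experiment are each described as 3 replicates combined in 1 raw file. No spread between livers can be computed from them, so no comparison below has a test over animals. Shares are given with exact binomial (Clopper-Pearson) 95% intervals, which cover counting error only. Read depth behind the lists is unknown. The Foxa2 lists carry no score, so peaks were placed by their entry number, the order in which the authors listed them.

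Foxa2 is a forkhead transcription factor of the liver and other endoderm-derived organs. It can bind its sites in closed chromatin and is known as a pioneer factor. LXR and FXR are nuclear receptors that bind DNA as heterodimers with RXR, LXR in response to oxysterols and FXR in response to bile acids. T0901317 is known to activate the xenobiotic receptor PXR as well as LXR, whereas GW3965 is the more selective LXR agonist.

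Few T09-only peaks reached a promoter, and few of those promoters held a forkhead motif. Only upstream bases that lie inside a T09-only peak are printed, 5′ to 3′ on the strand of the gene, from RefSeq promoters of GRCm38.p6. The first set holds the 6 T09-only peaks that come first in the list among those touching a promoter window. They show what such a promoter looks like. Capitals mark a forkhead core, which is either TGTTTAC or its variant spelled TGTTTGC or that spelled TATTTAC, on either strand.
Gm40904: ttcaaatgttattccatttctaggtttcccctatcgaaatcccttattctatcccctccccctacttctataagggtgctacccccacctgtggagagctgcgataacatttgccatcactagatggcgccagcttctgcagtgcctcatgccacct
Uchl4: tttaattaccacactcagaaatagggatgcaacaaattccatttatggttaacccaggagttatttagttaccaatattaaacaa
Gm39270: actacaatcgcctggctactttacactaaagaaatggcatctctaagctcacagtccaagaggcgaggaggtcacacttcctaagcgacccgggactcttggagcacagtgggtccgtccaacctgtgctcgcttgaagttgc
Chrm5: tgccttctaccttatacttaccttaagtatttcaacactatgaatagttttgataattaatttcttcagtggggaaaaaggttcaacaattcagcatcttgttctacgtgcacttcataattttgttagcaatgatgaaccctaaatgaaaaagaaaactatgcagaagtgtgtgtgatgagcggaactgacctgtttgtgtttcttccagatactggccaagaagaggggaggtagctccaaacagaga
Gm40770: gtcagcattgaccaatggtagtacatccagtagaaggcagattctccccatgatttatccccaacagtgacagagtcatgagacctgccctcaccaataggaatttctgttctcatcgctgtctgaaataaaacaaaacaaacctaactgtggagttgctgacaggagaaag
Fabp2: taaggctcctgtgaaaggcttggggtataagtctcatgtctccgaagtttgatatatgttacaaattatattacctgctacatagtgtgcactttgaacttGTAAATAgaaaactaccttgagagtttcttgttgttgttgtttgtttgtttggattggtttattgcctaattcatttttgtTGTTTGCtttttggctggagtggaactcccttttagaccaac

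Of these 6 promoters, only that of Fabp2, the intestinal fatty acid binding protein, held a forkhead core in the printed bases, and it held 2. Its T09-only peak lay at chr3:122894848-122895075 and was entry 7912. The Gm40904 promoter lay in a peak at chr13:12925605-12927333 that also overlapped peaks of 10 of the 18 FXR, LXR and PPAR lists. The Chrm5 peak (a muscarinic acetylcholine receptor gene) at chr2:112480462-112481381 covered all 250 upstream bases and overlapped no other list. The second set was chosen after the values were seen and holds 4 promoters with TGTTTAC on either strand inside a T09-only peak, to show the motif where it does occur.
Cutal: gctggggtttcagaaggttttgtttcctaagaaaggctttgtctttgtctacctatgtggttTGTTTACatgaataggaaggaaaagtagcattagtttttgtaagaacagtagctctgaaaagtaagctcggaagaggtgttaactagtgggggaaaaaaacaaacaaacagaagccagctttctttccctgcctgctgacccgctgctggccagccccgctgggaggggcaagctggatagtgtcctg
Nras: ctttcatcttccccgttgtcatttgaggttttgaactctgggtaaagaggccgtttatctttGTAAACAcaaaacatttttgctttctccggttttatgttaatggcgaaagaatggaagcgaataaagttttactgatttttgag
Pdpn: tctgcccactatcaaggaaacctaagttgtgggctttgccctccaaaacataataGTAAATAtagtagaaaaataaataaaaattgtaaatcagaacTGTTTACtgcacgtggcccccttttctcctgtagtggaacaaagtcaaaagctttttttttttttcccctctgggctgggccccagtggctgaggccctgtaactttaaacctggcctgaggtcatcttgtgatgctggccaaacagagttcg
Akr1c21: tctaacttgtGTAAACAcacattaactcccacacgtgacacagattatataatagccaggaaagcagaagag

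Nras encodes a small GTPase, Pdpn the membrane glycoprotein podoplanin and Akr1c21 a hydroxysteroid dehydrogenase. Their peaks stood late in the list, at entries 15293, 19540 and 20549, and the Cutal peak at entry 10575. The Cutal peak was the only one of these 4 that overlapped another list, that of accessibility gained with GW3965.

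The forkhead core TGTTTAC was found in 5 of 142 promoter windows touched by a T09-only peak, or 3.52% (1.15 to 8.03), against 164 of 794 windows touched by another T09 peak, or 20.7% (17.9 to 23.6). A window was the 300 bases from 250 upstream to 50 downstream of a RefSeq start, and both strands were searched. Over all 32851 windows the share was 3.65%. It was 6.93% (5.29 to 8.89) under GW3965-only peaks and 3.70% (1.02 to 9.21) under GW4064-only peaks, the sets defined for those lists by the same rule. Promoters under T09-only peaks thus held the core at about the share of all promoters, and those under other T09 peaks at a higher share, with intervals that do not overlap.

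Both variants of the core were also less frequent under T09-only peaks than under other T09 peaks, whereas the order against all windows differed between them. TGTTTGC was in 3.52% of windows under T09-only peaks and 10.1% under other T09 peaks, with 5.07% of all windows. TATTTAC was in 4.23% and 12.2%, with 3.04% of all windows. Any of the 3 cores was found in 13 of 142 windows under T09-only peaks (9.15%, 4.97 to 15.1) and in 316 of 794 under other T09 peaks (39.8%, 36.4 to 43.3), against 11.2% of all windows. The nuclear receptor hexamer AGGTCA was in 14.8% (9.39 to 21.7) of windows under T09-only peaks and 20.7% (17.9 to 23.6) under other T09 peaks, with 16.3% of all windows. Its direct repeat with 4 bases between, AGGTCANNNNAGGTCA, the arrangement known for LXR, was in none of the 142 windows, with an exact upper bound of 2.56%, and in only 5 (0.0152%) of all 32851 windows. A match is a description of letters and not a bound site.

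Among peaks placed late in the list the difference for TGTTTAC was smaller. In the last 3 of 5 equal parts of the T09 list it was in 3.15% (0.865 to 7.87) of windows under T09-only peaks and 13.4% (9.38 to 18.2) under other T09 peaks. Taken part by part, it was in 2.17% (0.0550 to 11.5) and 17.2% (10.9 to 25.4) in the part numbered 3, in 4.76% (0.582 to 16.2) and 6.67% (2.20 to 14.9) in the part numbered 4, and in 2.56% (0.0649 to 13.5) and 14.3% (6.38 to 26.2) in the last. Within each of these 3 parts the intervals overlap. With at least 150 bases of the window inside the peak, the shares were 3.53% and 25.2%. Both settings were chosen after seeing the data. Base composition differed little between these sets, with a median GC content of 52.0% in windows under T09-only peaks and 52.3% under other T09 peaks, whereas it was 61.3% under GW3965-only peaks.

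**Figure D1:**
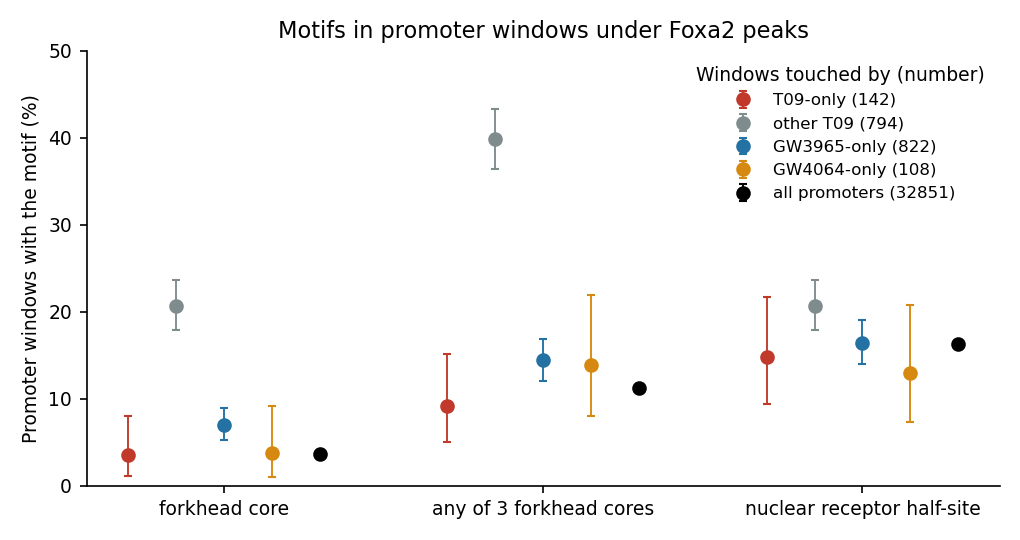
Share of promoter windows (y axis, percent) that hold the forkhead core TGTTTAC, any of 3 forkhead cores, or the nuclear receptor hexamer AGGTCA (labelled half-site), for windows touched by T09-only, other T09, GW3965-only or GW4064-only Foxa2 peaks and for all windows. Bars are exact binomial 95% intervals; the T09-only point lies at 3.52% for TGTTTAC, beside 20.7% for other T09 peaks and 3.65% for all promoters.

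The T09-only peaks stood almost entirely in the later entries of the T09 list. None of the first 500 entries was T09-only, 1 of the first 1000 was, and 28 of the first 5000 were. Cut into 10 equal runs by entry, the list was T09-only in 0.118% of peaks in the first run, 10.4% in the run numbered 3, 51.4% in the run numbered 5 and 85.2% in the last. The median entry number was 17933 for T09-only peaks and 6609 for other T09 peaks. These values come from the list that defined the members and are a description.

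T09-only peaks were not the narrow ones of the list. Their median width was 308 bp (quartiles 222 and 408, range 44 to 3767), against 281 bp for other T09 peaks. At every run of the list the T09-only peaks were the wider set, with medians of 435 against 255 bp in the run numbered 4 and 280 against 212 bp in the last. GW3965-only peaks had a median width of 245 bp and GW4064-only peaks of 45.0 bp.

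**Figure D2:**
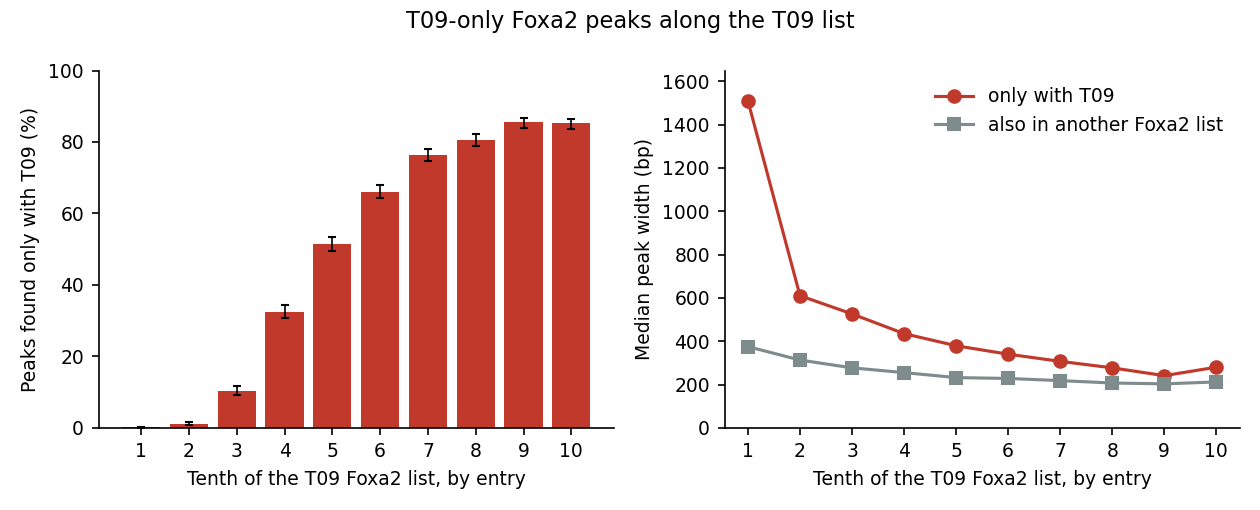
Left, share of Foxa2 peaks found only with T09 (y axis, percent, with exact binomial 95% intervals) in 10 equal runs of the T09 list by entry (x axis). Right, median peak width in bp of T09-only peaks and of T09 peaks also in another Foxa2 list; the share is 0.118% in the first run and 85.2% in the last, and the T09-only medians lie above the others throughout (the first run holds only 3 T09-only peaks).

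Most T09-only peaks were far from any other Foxa2 peak rather than just beside one. The median distance to the nearest peak of another Foxa2 list was 27402 bp (quartiles 8321 and 70312). Just outside the limit of the rule, 1 member abutted a peak of another list, 46 lay within 100 bp of one, and 631 (5.09%) within 1 kb. Just inside it, 21 other T09 peaks were covered over 10 bases or fewer, while the median other T09 peak was covered over 95.4% of its width. T09-only peaks were also spread out among themselves, with a median gap of 60715 bp to the next one and 159 of them within 1 kb of another.

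Among the other lists, GW3965 shared most of the remaining T09 peaks. It held 12359 T09 peaks, GW4064 held 9693, the vehicle of the LXR agonist experiment 4208 and that of the GW4064 experiment 4749. Peaks found with T09 and GW3965 and in no other list numbered 2877, and those found with T09, GW3965 and GW4064 but neither vehicle 3801. Of the 19515 T09 peaks in neither vehicle list, 63.5% were T09-only. The rule gave 6964 GW3965-only peaks of 21245 (32.8%), 10925 GW4064-only peaks of 22666 (48.2%) and 24 peaks of 4348 (0.552%) for the vehicle of the LXR agonist experiment. For the vehicle of the GW4064 experiment, without agonist, it gave 2203 peaks of 7306 (30.2%), close to the GW3965-only share. The lists differ in length and in peak width, and whether the numbers follow ligand or depth cannot be told apart here.

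T09-only peaks lay farther from start sites than other T09 peaks. The median distance from the peak centre to the nearest RefSeq start was 41.8 kb (quartiles 13.2 and 140), against 18.2 kb for other T09 peaks (5.51 and 50.6). It was 14.7 kb for GW3965-only peaks and 40.6 kb for GW4064-only peaks. A start lay within 1 kb of 2.49% of T09-only peaks (2.22 to 2.79) and of 9.40% of other T09 peaks (8.89 to 9.92). Beyond 100 kb from any start were 31.0% of T09-only peaks and 13.0% of other T09 peaks. Of GW4064-only peaks 30.2% lay beyond 100 kb and of GW3965-only peaks 12.6%, so the T09-only share was close to that of the GW4064-only peaks.

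The distance grew along the list for T09-only peaks and stayed level for other T09 peaks. Over the 5 equal parts of the list its median was 22.3, 34.2, 39.3, 43.5 and 45.0 kb for T09-only peaks, against medians between 17.4 and 18.8 kb for other T09 peaks. The first of these parts holds only 30 T09-only peaks. At equal places in the list, T09-only peaks were the more distant set in each part.

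**Figure D3:**
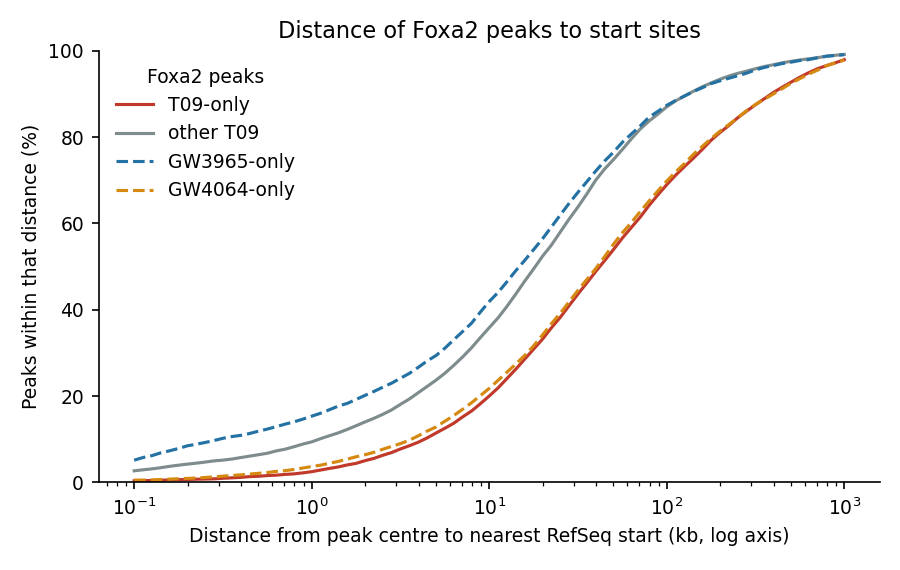
Cumulative share of Foxa2 peaks (y axis, percent) within a given distance of the nearest RefSeq start (x axis, kb, log scale) for T09-only, other T09, GW3965-only and GW4064-only peaks. The T09-only and GW4064-only curves run together, with medians of 41.8 and 40.6 kb, to the right of the other T09 and GW3965-only curves, with medians of 18.2 and 14.7 kb.

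Fewer T09-only peaks lay inside genes, and those that did lay in long ones. The centre of 43.7% of T09-only peaks (42.8 to 44.5) was in a protein-coding gene, against 54.8% of other T09 peaks (53.9 to 55.7). The median length of the gene around them was 129 kb for T09-only peaks and 88.6 kb for other T09 peaks. GW4064-only peaks were close to T09-only peaks, with 44.4% (43.4 to 45.3) in a gene and a median length of 118 kb. For GW3965-only peaks the values were 55.5% (54.3 to 56.7) and 77.4 kb. The median over all 21887 protein-coding genes was 17.2 kb, but it counts each gene once and the others count each peak, so they are not like for like.

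Genes with the most T09-only peaks were very long ones, several of them best known from neurons. Macrod2, which encodes an ADP-ribosyl hydrolase and spans 1998 kb, held 20 T09-only peaks of its 24 T09 peaks. Cntnap2 (a neurexin-like adhesion protein) held 14 of 14, Ccser1 13 of 13 and Kcnip4 (a potassium channel interacting protein) 11 of 11. Prkg1 (cGMP-dependent protein kinase) held 12 of 13, Ptprd (a receptor tyrosine phosphatase) 12 of 22, Pcdh15 (a protocadherin of hair cells) 11 of 13, Naaladl2 11 of 17 and Sugct 11 of 11. Per 100 kb these genes held between 0.524 (Ptprd) and 1.28 (Sugct) T09-only peaks. The totals here count T09 peaks only, and each of these genes also had peaks of other Foxa2 lists. Those numbered 20 at Cntnap2, 7 at Ccser1 and 6 at Kcnip4. GW4064-only peaks numbered 17 at Cntnap2 and 15 at Macrod2, but 1 at Pcdh15 and 0 at Sugct. Cadm2, Dlg2, Dpyd, Foxp2 and Pard3b tied at 10.

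The share of T09-only peaks also differed by chromosome. It was lowest on chromosome 17 (23.5%, 19.7 to 27.8, 105 of 446 T09 peaks) and chromosome 11 (31.7%, 28.7 to 34.8, 297 of 937) and highest among autosomes on chromosome 3 (55.9%, 53.5 to 58.2, 991 of 1773). GW4064-only peaks made up 42.0%, 29.8% and 55.0% of their list on chromosomes 17, 11 and 3, and GW3965-only peaks 32.4%, 35.9% and 31.8%.

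Before binding of other factors is compared, 102 regions (390 kb in all) have to be set apart, since each was found with all 4 antibodies (Foxa2, FXR, LXR and PPAR). They held 30 T09-only peaks (0.242%) and 100 other T09 peaks (0.773%). Of the 8 widest T09-only peaks, 4 overlapped many lists of other antibodies and 4 overlapped few or none. The widest, of 3767 bp at chr4:147517339-147521105 near Zfp982, overlapped 15 of the 18 lists of FXR, LXR and PPAR. That near Zfp987 (3014 bp) overlapped 13, that in Mroh2a (2202 bp) 16 and that nearest to Olfr161 (2148 bp) 11. The others were wide peaks in Nlrp9b (3003 bp) and Tmem196 (2786 bp) and one near Gm52481 (2217 bp), in none of these 18 lists, and one near Btbd35f25 (2509 bp), in 2 of them.

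Few T09-only Foxa2 peaks lay where chromatin opened with T09. Of 12385, 284 (2.29%, 2.04 to 2.57) overlapped a region of accessibility gained with T09 in WT livers, against 701 of 12933 other T09 peaks (5.42%, 5.04 to 5.82) and 3.89% of all T09 Foxa2 peaks. GW3965-only peaks overlapped the same T09 regions in 7.35% of cases (6.75 to 7.99) and GW4064-only peaks in 1.76% (1.52 to 2.02). The share for peaks found only with T09 was thus below that for peaks found only with GW3965, with intervals that do not overlap. The ATAC libraries were not used by the rule, but the comparison rests on 1 list of each kind.

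The gap was wider for accessibility gained with GW3965. Of T09-only peaks 4.09% (3.75 to 4.46) overlapped such a region, against 25.6% of other T09 peaks (24.9 to 26.4), with 15.1% over all T09 Foxa2 peaks. By the rule no T09-only peak overlapped a GW3965 Foxa2 peak, whereas 12359 of the 12933 other T09 peaks did. The sets thus differ at GW3965 sites by construction, and the part of the rule in this gap was not tested. For accessibility gained with GW4064 in WT the shares were 2.74% and 9.65%, with 6.27% over all. In Foxa2-KO livers with GW4064 they were 2.29% (2.03 to 2.56) and 2.90% (2.62 to 3.20), with 2.60% over all. Over the last 4 of the 5 parts of the list, the T09-only share for T09-gained regions was 3.95%, 2.83%, 1.61% and 2.06%, against 5.58%, 6.36%, 4.59% and 6.33% for other T09 peaks. The first part held only 4 such T09-only peaks of 30 (13.3%, 3.76 to 30.7), against 4.95% of other T09 peaks.

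**Figure D4:**
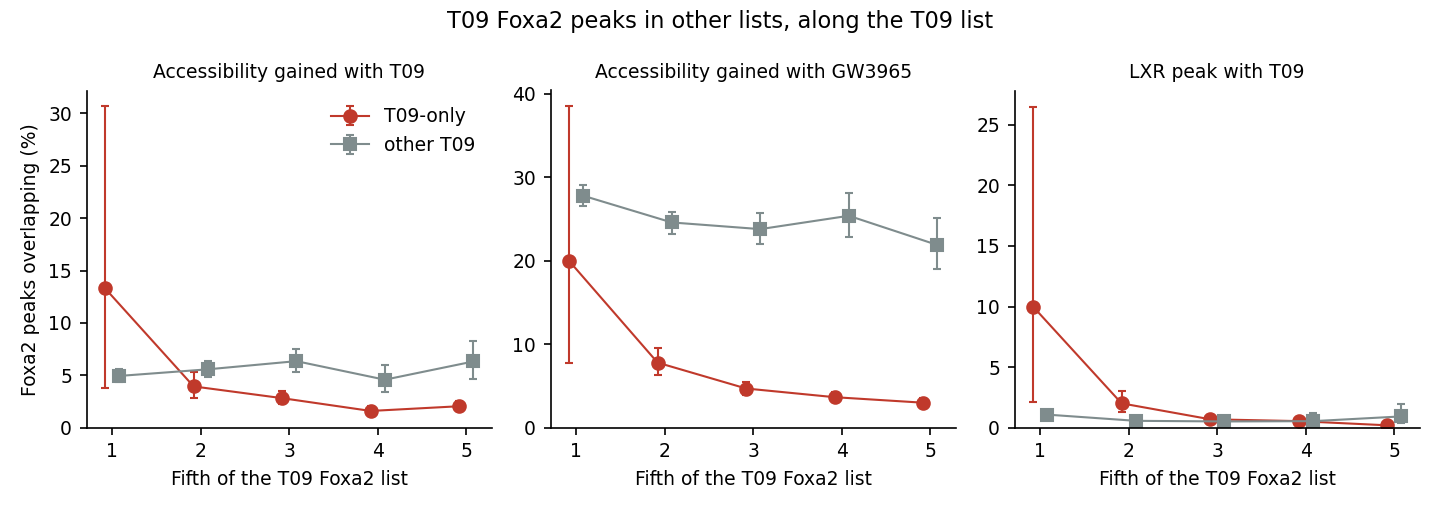
Share of Foxa2 peaks (y axis, percent, exact binomial 95% intervals) that overlap a region of accessibility gained with T09, a region gained with GW3965 or an LXR peak with T09 in WT liver, for T09-only and other T09 peaks in 5 equal parts of the T09 list (x axis). From the part numbered 2 on, T09-only shares for accessibility lie below those of other T09 peaks (2.06% against 6.33% in the last part for T09); the first part has only 30 T09-only peaks.

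Most T09-only peaks in a region opened by T09 were in no region gained with GW3965 or GW4064 in WT, with 229 of 284 (80.6%, 75.6 to 85.1). The same held for 424 of the 701 other T09 peaks in T09-gained regions (60.5%, 56.8 to 64.1). Of all 60868 regions gained with T09, 91.4% overlapped no region gained with GW3965 or GW4064 in WT. That share counts ATAC regions, whereas those above count Foxa2 peaks, so they are not like for like. Regions gained with GW3965 held 41 of the 284 T09-only peaks (14.4%, 10.6 to 19.1) and 225 of the 701 other T09 peaks (32.1%, 28.7 to 35.7). By the authors' deposited table, the 285 ATAC regions that held a T09-only peak had a median fold of 2.23 (T09 over vehicle) and a median width of 353 bp. In the same authors' deposited table, the 623 regions that held another T09 peak and none of these had a median fold of 1.39 and a median width of 1205 bp, and the 59960 regions with no T09 Foxa2 peak 4.03 and 111 bp. Across these sets of regions the median fold was higher where the median width was smaller, and the part of width in the fold was not tested.

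The 10 T09-only peaks in the foremost regions opened by T09 lay in or near the following genes. The T09-only peak at chr5:135732874-135733269 lay in Por, which encodes the reductase that passes electrons to microsomal P450 enzymes, within entry 17 of the ATAC list, a region of 14362 bp with a fold of 1.85 in the authors' deposited table. Scp2, the sterol carrier protein gene, held one at chr4:108072112-108072571 in a region of 18212 bp (entry 28, fold 1.48 in the authors' deposited table). Cyp2c70, the P450 that makes muricholic acids in mouse, held one at chr19:40161028-40161301 in a region of 1901 bp with a fold of 4.02 in the authors' deposited table. Egfr (the EGF receptor), Ces2a (a carboxylesterase), Opn3 (an opsin), Gfra1 (a GDNF co-receptor), Cps1 (the carbamoyl phosphate synthetase of the urea cycle), Amn1 (the nearest gene, 26540 bp away) and Mrpl14 (a mitochondrial ribosomal protein) completed the first 10. Of these 10 peaks, those at Por, Cyp2c70, Gfra1, Cps1 and Mrpl14 also lay in a region gained with GW3965.

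LXR peaks were met by few Foxa2 peaks of either set. A WT LXR peak with T09 was overlapped by 77 T09-only peaks (0.622%, 0.491 to 0.776) and by 102 other T09 peaks (0.789%, 0.644 to 0.957), with 0.707% over all T09 Foxa2 peaks. The order turned when the regions found with all 4 antibodies were left out, with 63 of 12355 T09-only peaks (0.510%, 0.392 to 0.652) against 34 of 12833 other T09 peaks (0.265%, 0.184 to 0.370). In the last of the 5 parts of the list, which holds the most T09-only peaks, it did not turn. There the shares outside those regions were 0.185% (0.0801 to 0.365) of T09-only and 0.810% (0.298 to 1.75) of other T09 peaks, and the intervals overlap. In each earlier part the T09-only share was the higher, with 3.70% against 0.281%, 1.39% against 0.177%, 0.606% against 0.289% and 0.529% against 0.0923%. Of these, only the part numbered 2 had intervals that do not overlap, and the first rests on 1 T09-only peak of 27. GW3965-only peaks overlapped the same LXR list in 0.129% (0.0591 to 0.245) and GW4064-only peaks in 0.302% (0.208 to 0.424), outside those regions. LXR peaks of WT livers with the agonist labelled GW showed the same order outside those regions, with 0.615% of T09-only and 0.335% of other T09 peaks, and with vehicle the shares were 0.364% and 0.343%. With the shared regions in, they were 0.767% and 0.866% for GW and 0.517% and 0.889% for vehicle. The shares over all T09 Foxa2 peaks were 0.818% for GW and 0.707% for vehicle. LXR peaks were narrow, with a median width of 38.0 bp for T09 in WT. The Foxa2 sets differ in width, with medians of 308 bp for T09-only, 281 bp for other T09, 245 bp for GW3965-only and 45.0 bp for GW4064-only peaks. Wider peaks can meet more regions by 1 base, and the part of width in the overlap shares was not tested.

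Of the 77 T09-only peaks at an LXR peak with T09, 47 (61.0%, 49.2 to 72.0) lay in no other LXR list, against 16 of the 102 other T09 peaks (15.7%, 9.24 to 24.2). Outside the shared regions these were 47 of 63 T09-only peaks (74.6%, 62.1 to 84.7) and 15 of 34 other T09 peaks (44.1%, 27.2 to 62.1). Of all 8095 peaks of the LXR list with T09, 94.4% overlapped no other LXR list. That share counts LXR peaks, whereas those above count Foxa2 peaks, which are wider, so they are not like for like. The WT vehicle LXR list held 20 of the 77 T09-only peaks and 70 of the 102 other T09 peaks. The 10 best placed by LXR entry were at Mroh2a (4 peaks), Trpm8 (2), Tmem267 (2), Rpl14 and Gm39469, and of these only the one near Rpl14 (a ribosomal protein) and one of the Tmem267 pair lay outside the shared regions. The Rpl14 peak at chr9:120602295-120602501 also overlapped LXR peaks with GW and with vehicle. Chosen after the values were seen, T09-only peaks that met LXR with T09 and in no other LXR list lay in Fech (ferrochelatase, the last enzyme of heme synthesis), Erbb4 (a receptor tyrosine kinase), Dmxl1 and Tmem209. The Fech peak, at chr18:64473816-64474057, also lay in regions of accessibility gained with T09 and with GW4064.

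FXR peaks of WT livers were met by a lower share of T09-only peaks than of other T09 peaks. A WT FXR peak with GW4064 was overlapped by 115 of them (0.929%, 0.767 to 1.11), against 3.22% of other T09 peaks (2.92 to 3.54), with 2.10% over all. Outside the shared regions the shares were 0.785% and 2.59%. In Foxa2-KO livers with GW4064 the order differed outside the shared regions, with 32 T09-only peaks (0.259%, 0.177 to 0.365) against 8 other T09 peaks (0.0623%, 0.0269 to 0.123). With the shared regions in, the KO shares were 0.428% and 0.549%, with 0.490% over all. Outside them, the same Foxa2-KO list was met by 18 GW4064-only peaks (0.165%, 0.0978 to 0.260) and 2 GW3965-only peaks (0.0287%, 0.00348 to 0.104). PPAR lists were met by few T09-only peaks, from 6 (0.0484%) with GW3965 in WT, where 31 other T09 peaks (0.240%) and 0.146% of all did so, to 71 (0.573%) with vehicle in Foxa2-KO livers, where 113 other T09 peaks (0.874%) and 0.727% of all did. Outside the shared regions the counts for GW3965 in WT were 3 T09-only peaks (0.0243%) and 12 other T09 peaks (0.0935%). For vehicle in Foxa2-KO livers the order turned there, with 47 T09-only peaks (0.380%, 0.280 to 0.506) against 31 other T09 peaks (0.242%, 0.164 to 0.343), and the intervals overlap.

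Most peaks of both sets met none of the FXR, LXR or PPAR lists and no WT region of gained accessibility. These were 10978 of 12385 T09-only peaks (88.6%, 88.1 to 89.2) and 8033 of 12933 other T09 peaks (62.1%, 61.3 to 62.9). The gap lay mostly in accessibility, with 8.24% of T09-only and 35.2% of other T09 peaks in a WT region of gained accessibility. Those regions include the ones gained with GW3965, and the rule kept peaks shared with the GW3965 Foxa2 list out of the T09-only set. A peak of any FXR, LXR or PPAR list was met by 3.69% (3.36 to 4.04) and 4.60% (4.25 to 4.98). Accessibility of Foxa2-KO livers was not counted here.

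The first 15 T09-only peaks by entry included 2 near Cyp3a genes, beside others near genes of varied kinds. The very first, entry 950, was a peak of 1509 bp at chr5:145974691-145976199, 992 bp from Cyp3a25. Cyp3a25 and Cyp3a11 encode P450 enzymes of the CYP3A family, which hydroxylate drugs, steroids and bile acids, and Cyp3a11 is the standard target gene of PXR in mouse liver. Another stood at entry 3550, at chr5:145852899-145853508, 1098 bp from Cyp3a11. Each of the 2 genes held 5 T09-only peaks in the gene or within 10 kb, of 7 T09 peaks at Cyp3a25 and 8 at Cyp3a11. The Cyp3a genes are close paralogs in 1 cluster, and how reads that fit several of them were placed is not given in the sources used here.

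All 10 of these Cyp3a peaks lay in accessibility gained with GW4064 in WT livers, and 8 of them also in that gained with GW4064 in Foxa2-KO livers. Of the 10, 2 lay in accessibility gained with GW3965, both at Cyp3a11, and none in that gained with T09. Over all T09-only peaks the shares, in this order, were 2.74%, 2.29%, 4.09% and 2.29%. Over all T09 Foxa2 peaks they were 6.27%, 2.60%, 15.1% and 3.89%. The T09-only peaks at Cyp3a25 that follow the first lay at chr5:145996313-145996824, chr5:145976779-145976947, chr5:145983605-145983934 and chr5:145995264-145995491. Those at Cyp3a11 lay at chr5:145855679-145855976, chr5:145863162-145863471, chr5:145859559-145859818 and chr5:145874718-145875025, all inside the gene.

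Slco1a1, an organic anion transporter of hepatocytes, held a T09-only peak at chr6:141911766-141912044 (entry 4037), and the peak at chr6:141593186-141593709 (entry 3275) had Slco1c1, a thyroid hormone transporter, as its nearest gene at 23008 bp. Hmgn3 (a nucleosome binding protein) and Cdc14a (a phosphatase) each held a T09-only peak in accessibility gained with T09, at entries 2932 and 3277. Others of the first 15 lay in Rnf217 (a ubiquitin ligase), Cr2 (a complement receptor), Nucks1 and Usp10 (a deubiquitinase) and nearest to Trib2 (a pseudokinase), with no ATAC region. The peaks nearest to Tcte2, Poteg and Chordc1 (an HSP90 co-chaperone) were 124806, 263041 and 777724 bp from those genes. The one in Gm7827 overlapped 9 of the 18 lists of FXR, LXR and PPAR, and that nearest to Tcte2 overlapped 4.

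Across protein-coding genes, 4960 of 21887 (22.7%) had a T09-only peak in the gene or within 10 kb, and 1466 (6.70%) had one and no other Foxa2 peak. Genes with a T09-only peak had a median length of 50.4 kb. GW3965-only peaks marked 20.5% of genes and GW4064-only peaks 22.4%. The gene lists below were written with earlier results of these data known, neighbouring members can share a peak, and the intervals treat genes as independent.

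Target genes of PXR and CAR, the receptors that induce drug metabolism, held T09-only peaks at the highest share of the 13 lists. Of 23 such genes 13 (56.5%, 34.5 to 76.8) had one, against 22.7% of all genes. Nearly every gene of this list, 22 of 23, had a T09 Foxa2 peak of some kind, against 39.2% of all genes. Among genes with a T09 peak, 13 of 22 (59.1%, 36.4 to 79.3) had a T09-only one, close to the 57.8% of all genes with a T09 peak. GW3965-only peaks marked 13 of the 23 and GW4064-only peaks 8. The genes were Cyp3a11, Cyp3a25, Cyp3a13, Cyp2b10 (the standard target of CAR), Cyp2c29, Cyp2c55, Gsta1 and Gsta2 (glutathione transferases), Abcb1a (a drug export pump), Slco1a4 (an organic anion transporter), Ces2a, Por and Aldh1a1 (a retinal dehydrogenase), named after the values were seen apart from Cyp3a11, Cyp3a25, Gsta1, Ces2a and Por. Gsta1 was the only one with no other Foxa2 peak, its T09-only peak lying 9541 bp away at chr9:78220967-78221127. The receptor genes themselves, Nr1i2 (PXR) and Nr1i3 (CAR), had no T09-only peak, with 6 and 2 T09 peaks of the other kind.

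Of the 27 T09-only peaks at PXR and CAR genes, 17 lay in accessibility gained with GW4064 in WT, 9 in that gained with GW4064 in Foxa2-KO, 5 in that gained with GW3965 and 4 in that gained with T09. The 4 lay at Ces2a (2), Por and Gsta2. Of the 53 other T09 peaks at these genes, 26, 3, 15 and 10 did so in that order. Over all T09 Foxa2 peaks the shares in that order were 6.27%, 2.60%, 15.1% and 3.89%. The 17 include all 5 T09-only peaks at Cyp3a11 and all 5 at Cyp3a25, genes of the same cluster. Of the 9, all but that at Cyp2c29 were at these Cyp3a genes. None of the 27 overlapped an LXR peak with T09. The median length of the genes of this list was 32.5 kb, against 17.2 kb for all genes, and the part of gene length in the count was not tested.

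Of 29 LXR target genes, 8 (27.6%, 12.7 to 47.2) had a T09-only peak, beside 22.7% of all genes. Among those with any T09 peak they were 8 of 20 (40.0%, 19.1 to 63.9), beside 57.8%, so the list lay above or below the background according to which genes are counted, with wide intervals. Of the 29, 17 had a GW3965-only peak and 11 a GW4064-only peak. Named after the values were seen, those with a T09-only peak included Abca1 (the cholesterol exporter), Scd1 (stearoyl-CoA desaturase), Acaca and Acacb (acetyl-CoA carboxylases), Elovl6 (a fatty acid elongase), Lpcat3 (a phospholipid acyltransferase) and Pnpla3. Each of these named genes also had Foxa2 peaks of other lists. Srebf1, Abcg5, Abcg8, Fasn and Cyp7a1, further classic LXR targets also named after their values were seen, had T09 peaks and no T09-only one. Of the 12 T09-only peaks at LXR target genes, none lay in accessibility gained with T09 or at an LXR peak with T09, and 3, at Scd1, Elovl6 and Lpcat3, lay in accessibility gained with GW3965. Of the 47 other T09 peaks at these genes, 1 lay in accessibility gained with T09, 1 at an LXR peak with T09 and 34 in accessibility gained with GW3965. With 12 peaks, a difference in T09-gained accessibility or LXR peaks was not detectable.

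**Figure D5:**
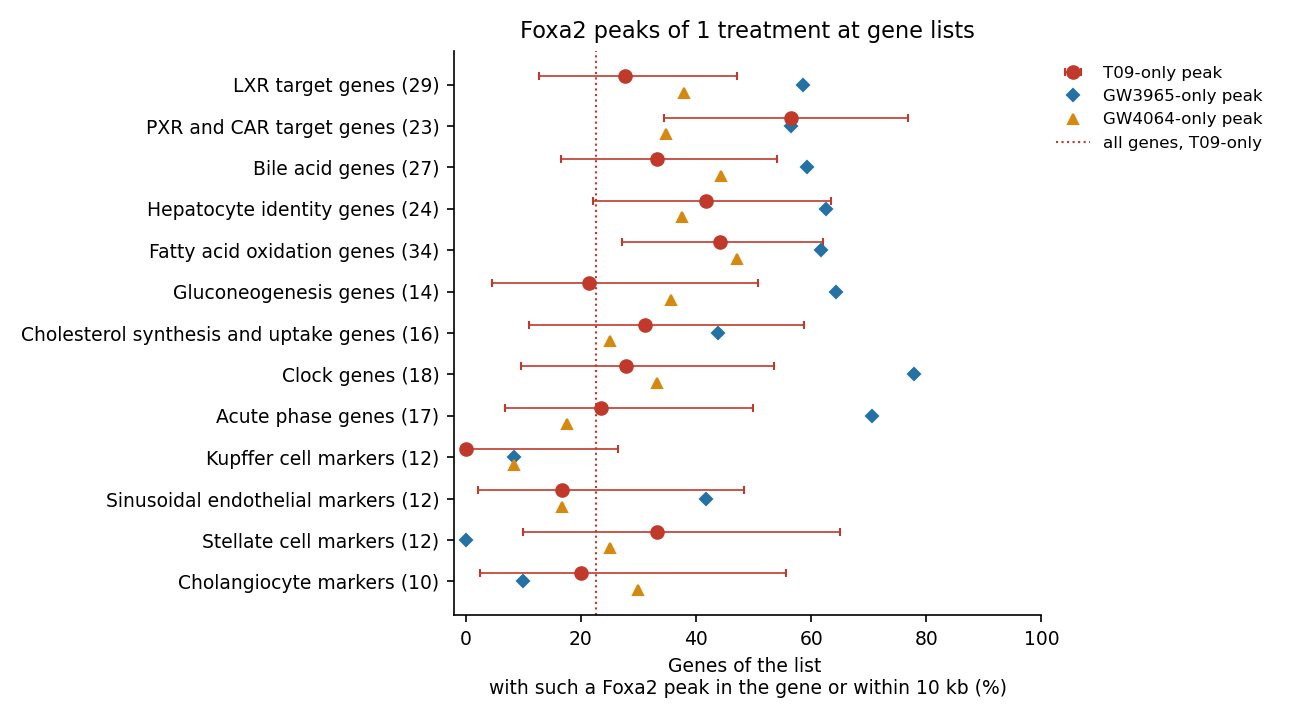
Share of the genes of each list (x axis, percent; number of genes in brackets) with a T09-only, GW3965-only or GW4064-only Foxa2 peak inside the gene or at most 10 kb away. Bars are exact binomial 95% intervals for T09-only peaks and the dotted line is the T09-only share of all protein-coding genes, 22.7%; PXR and CAR targets reach 56.5% and Kupffer cell markers 0%.

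Other gene lists of the hepatocyte ran from 44.1% to 21.4%. T09-only peaks marked 15 of 34 fatty acid oxidation genes (44.1%, 27.2 to 62.1), 10 of 24 hepatocyte identity genes (41.7%, 22.1 to 63.4) and 9 of 27 bile acid genes (33.3%, 16.5 to 54.0). They marked 5 of 16 genes of cholesterol synthesis and uptake (31.2%), 5 of 18 clock genes (27.8%), 4 of 17 acute phase genes (23.5%) and 3 of 14 gluconeogenesis genes (21.4%). Beside these, GW3965-only peaks marked 21, 15, 16, 7, 14, 12 and 9 genes of the same lists. GW4064-only peaks marked 16, 9, 12, 4, 6, 3 and 5 of them, close to the T09-only counts. The acute phase count fell to 0 when a T09 peak within 1000 bases of another Foxa2 peak was also counted as found, since the 3 peaks behind it lay 241 to 457 bp from one, and Saa1 and Saa2 (serum amyloid genes, named after their values were seen) share 1 of them. The gluconeogenesis count was 6 when a T09 peak had to be covered over at least 50% to count as found. Among genes with a T09 peak, the shares of these 7 lists lay between 21.4% and 51.7%, beside 57.8% of all such genes. Idi1 (isopentenyl diphosphate isomerase) and Insig1 (a sterol-regulated retention protein of the endoplasmic reticulum) had a T09-only peak and no other Foxa2 peak. The Insig1 peak at chr5:28070204-28070353 lay in accessibility gained with GW3965.

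Markers of other liver cells were listed to check the tissue. No Kupffer cell marker of 12 had a T09-only peak (0%, up to 26.5%), nor any T09 peak. Of 12 sinusoidal endothelial markers 2 had one, Stab2 and Cdh5 (VE-cadherin), of which Cdh5 had no other Foxa2 peak and Stab2 was named after its value was seen. Of 12 stellate cell markers 4 had one (33.3%, 9.92 to 65.1), beside 22.7% of all genes. GW4064-only peaks marked 3 of these 12 markers, close to the T09-only count, and GW3965-only peaks marked 0. Of the 4 with a T09-only peak, Reln and Colec11 were among those with no other Foxa2 peak. Of 10 cholangiocyte markers 2 had one, Cftr and Pkhd1, both named after their values were seen. None of the 4 T09-only peaks at stellate cell markers overlapped any other list. Hepatocyte identity genes had a T09 Foxa2 peak of any kind in 23 of 24 cases, against 39.2% of all genes. Such a peak was also present at 9 of 12 sinusoidal endothelial, 5 of 10 cholangiocyte and 5 of 12 stellate cell markers. Each of these shares lay above that of all genes too, although the lists are short. The Foxa2 gene had 3 T09 peaks and no T09-only peak.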

How the data were processed

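Peak lists of ATAC-seq and ChIP-seq were read as deposited, with positions in mm10 (the same build as GRCm38), given 1-based. Reads were aligned with BWA, per the submitters' processing notes, and peaks were called with PeakSeq against input (ChIP) or ligand against vehicle (ATAC), per the labels and series text. No value per peak stands in the WT GW4064 ATAC list, the 5 lists of Foxa2 or the 2 of FXR in WT. For the others the authors deposited a q-value, and for the 3 remaining ATAC lists and the Foxa2-KO FXR lists also a fold over control and a -log10 p. The fold was used only for the ATAC list of T09, and the -log10 values the authors deposited were not used. Depth was not given.

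Overlap meant 1 shared base. The members, gene lists and named genes were chosen with earlier results of these data known. Named genes were the nearest genes of the first 15 members outside shared regions, of the 8 widest and of the first 10 in the LXR and ATAC lists of T09, the 10 genes with most members, list genes with a member and no other Foxa2 peak, and the first 6 promoters. Genes outside this rule are marked in the text, and some genes are not reported here. All 248 list entries matched the RefSeq gene table. Start sites and promoters are from RefSeq promoters of GRCm38.p6. Chromosome 18 was not used here for these, so 541 members have no distance. With 1 list per group no test was run, and intervals are exact binomial. Overlap counts were checked on simulated peaks with planted overlaps. Alternatives changed the overlap rule, list length, lists compared, peak width, shared regions and gene window. Software was scipy 1.17.1, pandas 2.3.3 and numpy 2.4.6 under python 3.11.15, with figures by matplotlib 3.10.9.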

Additional observations from a re-analysis of the deposited data

How the results depend on the processing

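The 19 results were recomputed under 12 alternatives that changed the choice of members or the windows, giving 182 values, of which 42 moved. The alternative with the most moved values kept only the first 50% of the T09 list, with 17 of the 42. There the members fell to 2419 and the genes with one to 1404, the median width was 414 bp, 3.68% lay in T09-gained accessibility, 1.45% at an LXR peak with T09, and 1.24% in the first of 5 parts of the list. This alternative leaves out the later entries, where most members stand. With a T09 peak counted as found only where at least 50% of it was covered, the median width was 317 bp and the share in the first part 1.94%. With the T09 list at the length of the GW3965 list, the median width was 329 bp. Against the vehicle and GW3965 lists of the same experiment alone, 0.858% met an LXR peak with T09 and 0.464% lay in the first part. When the peak centre had to lie in the region, 1.27% were in T09-gained accessibility. Within 50 kb, 9669 genes had a member. The cause of these moves was not tested beyond what each alternative leaves out. Of the 130 values for gene lists, 29 moved, 11 of them with the first 50% of the list and 10 with the 50 kb window. Across alternatives PXR and CAR targets had a member in 7 to 17 of 23 genes, LXR targets in 3 to 10 of 29, hepatocyte identity genes in 4 to 17 of 24, acute phase genes in 0 to 10 of 17 and stellate cell markers in 0 to 7 of 12. The share of promoters with TGTTTAC under T09-only peaks stayed at 3.15% to 3.53%, and under other T09 peaks it was 13.4% to 25.2%. The order of LXR shares between T09-only and other T09 peaks turned when regions found with all 4 antibodies were left out. No paired analysis was possible because each Foxa2 group is 1 list and no test was run. Leaving out 1 replicate was not run, because the authors combined the replicates of each list. Read depth behind the lists is unknown, so a peak missing from another list is not shown to be unbound there.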
